A study of Mus musculus with 21 samples.

Results

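AMPA receptor subunits and the auxiliary proteins that travel with them were examined at the mRNA level in brains of SAMP8 mice, a senescence-accelerated strain, given the peptide HsTX1[R14A] or phosphate-buffered saline (PBS). The genes were chosen by name from the deposited table: Gria1, Gria2, Gria3 and Gria4, which encode the pore-forming subunits GluA1 to GluA4, Cacng2, Cacng3 and Cacng8, which encode transmembrane AMPA receptor regulatory proteins (TARPs), Cnih2 and Cnih3, which encode cornichons, and Shisa9, which encodes the auxiliary protein CKAMP44. All 10 were found among the 16318 genes of the table, each in 1 row, and all 10 were among the 16303 genes that passed the low-count filter. HsTX1[R14A], which blocks Kv1.3 potassium channels, had been injected subcutaneously on alternate days for 8 weeks at 1 mg/kg in PBS (9 mice, 3 female and 6 male), and PBS alone was injected in the same way in 12 mice (6 female and 6 male). All mice were SAMP8, received the first injection at 4 months of age and the last at 6 months, and had performed behavioral tests in its last 4 weeks, and libraries of the control strain SAMR1 were not analysed here.

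AMPA receptors carry most fast excitatory transmission in the brain. Each channel is assembled from GluA subunits, and a channel that contains the edited form of GluA2 passes little calcium. TARPs and cornichons bind the receptor, bring it to the cell surface and synapse and slow its closing, whereas CKAMP44 modifies how receptors desensitize and recover.

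The whole-brain RNA of each mouse gave 1 library. Totals ran from 14917174 to 36207554 estimated counts in PBS mice and from 17552413 to 47613792 in HsTX1[R14A] mice. Levels are given below as CPM, the share of a gene in the library total rescaled by the trimmed mean of M values (TMM). The lowest count of any of the 10 genes in any mouse was 77 (Cacng8 in PBS mouse 103), so the spread between mice and not the number of reads set the precision. Against the brain label, neuron markers were present in all mice at a summed level of 4965 to 8533 CPM, but cerebellum markers were near absent in most libraries. Their sum over 6 genes lay between 21.1 and 106 CPM in every mouse except HsTX1[R14A] mouse 74, where it was 518 CPM. HsTX1[R14A] mouse 71 had the lowest sum of 6 striatum markers, 316 CPM against 673 CPM in the lowest PBS mouse, and PBS mouse 103 the lowest sum of 6 excitatory forebrain markers, 1450 CPM against a PBS median of 3855 CPM. The counts below are therefore also given without these 3 mice. In bulk tissue, fewer cells of a type and less RNA per cell cannot be told apart.

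The 4 pore subunits differed severalfold in level. Compared per kilobase of the longest transcript, so that genes of different length can be set side by side, Gria2 stood at 71.9 ± 4.76 CPM per kb (SD, n = 12) in PBS mice, Gria1 at 57.4 ± 9.36, Gria3 at 30.7 ± 5.72 and Gria4 at 17.3 ± 1.81. Among the auxiliary genes, Cnih2 had the highest level of all 10, at 123 ± 16.9 CPM per kb. Cacng3 followed at 25.3 ± 6.02 and Cacng2, which encodes stargazin, at 20.9 ± 3.22 CPM per kb. The lowest levels were those of Cnih3 (12.3 ± 1.68), Shisa9 (11.9 ± 2.96) and Cacng8, the gene of the TARP γ-8 of hippocampus (9.17 ± 4.13). In the order Cnih2, Gria2, Gria1, Gria3, Cacng3, Cacng2, Gria4, Cnih3, Shisa9 and Cacng8, 8 of the 9 neighboring pairs differed within mice (exact sign-flip permutation test over 12 PBS mice, two-sided, adjusted p from 0.000879 to 0.00549). Cnih3 and Shisa9 differed by 0.08 on the log2 scale with an SD of 0.38 and were not separated (adjusted p = 0.482). The order of 3 of these neighboring pairs turned with the length used. Divided by coding length, the log2 difference turned to -0.29 for Gria3 over Cacng3, -0.70 for Cacng3 over Cacng2 and -0.74 for Gria4 over Cnih3. By that length Cnih3 and Shisa9 were separated, at 0.57 (sign-flip permutation test, adjusted p = 0.0011). Pairs that were not neighbors changed places too. Per kilobase of coding length Cacng2 (118.7 CPM) stood beside Gria1 (117.0), and Gria4 (34.8) was below both Cnih3 (58.4) and Shisa9 (40.3). The longest Gria2 transcript has 10371 bases, of which 2649 are coding, so the level of Gria2 in particular depends on that choice.

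The promoters of Gria2 and Cnih2 are shown because these were the most abundant pore subunit and the most abundant auxiliary gene, and both had lower means in HsTX1[R14A] mice. RefSeq promoter sequences (GRCm38.p6) matched 7 of the 10 genes, and those of Gria2, Gria4, Cnih2 and Cnih3 end at the gene start of the GENCODE annotation. Both stretches are the 250 bases before the start, 5′ to 3′ on the strand of the gene, and neither overlaps an annotated exon. The Gria2 stretch is chr3:80802836-80803085 on the minus strand, and the Cnih2 stretch is chr19:5098522-5098771 on the minus strand. Capitals mark motif matches.
Gria2: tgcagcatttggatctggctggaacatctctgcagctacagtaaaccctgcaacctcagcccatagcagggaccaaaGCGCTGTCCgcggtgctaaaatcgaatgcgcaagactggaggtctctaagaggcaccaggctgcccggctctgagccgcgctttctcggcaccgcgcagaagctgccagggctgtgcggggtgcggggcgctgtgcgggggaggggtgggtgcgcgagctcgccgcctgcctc
Cnih2: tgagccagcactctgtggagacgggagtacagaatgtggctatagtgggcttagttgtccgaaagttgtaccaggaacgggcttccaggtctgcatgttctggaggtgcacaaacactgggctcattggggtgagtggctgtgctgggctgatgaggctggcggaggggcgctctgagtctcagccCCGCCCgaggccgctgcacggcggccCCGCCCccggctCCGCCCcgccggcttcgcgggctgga

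Motifs were searched on both strands and no matches overlapped in these 2 stretches. In Gria2 the capitals are the reverse complement of GGACAGCGC, the right part of the element bound by the neuronal repressor REST, 173 bases before the start. These letters occur in 0.304% of the 32851 promoters of the table over the same window, and this motif was added to the search after the Gria2 stretch had been read. In Cnih2 the capitals are 3 reverse complements of GGGCGG, the core of the Sp1 site, which is found in 32.7% of all promoters. The cAMP response element TGACGTCA (1.55% of promoters), the NRF1 motif (0.782%) and the TATA box TATAAA (12.4%) were not found in either stretch. The GC content was 64.8% for Gria2 and 65.6% for Cnih2, against a median of 52.4% over all promoters of the table.

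Between treatments, Gria1, Cacng8 and Shisa9 rose and the other 7 genes did not pass the threshold of an FDR of at most 0.05 (edgeR's quasi-likelihood test with sex in the model, Benjamini-Hochberg adjustment over all genes). Thus 3 of the 10 genes were called, against 31.6% of all 16303 genes tested, a share near the background. All 3 were higher in HsTX1[R14A] mice (15.5% of all genes were called higher and 16.1% lower). At an unadjusted p under 0.05 there were 5 of the 10, against 46.4% of all genes. Fold changes, given as log2 of HsTX1[R14A] relative to PBS, were above 0 in 7 of the 10, with a median of 0.18 against -0.01 over all genes tested. The treated and control mice overlapped for every one of the 10 genes (0.0184% of all genes had groups that did not overlap). Without mice 71, 74 and 103, a choice made after the data had been seen, 1826 genes (11.2%) and 1 of the 10, Shisa9, were called.

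**Figure D1:**
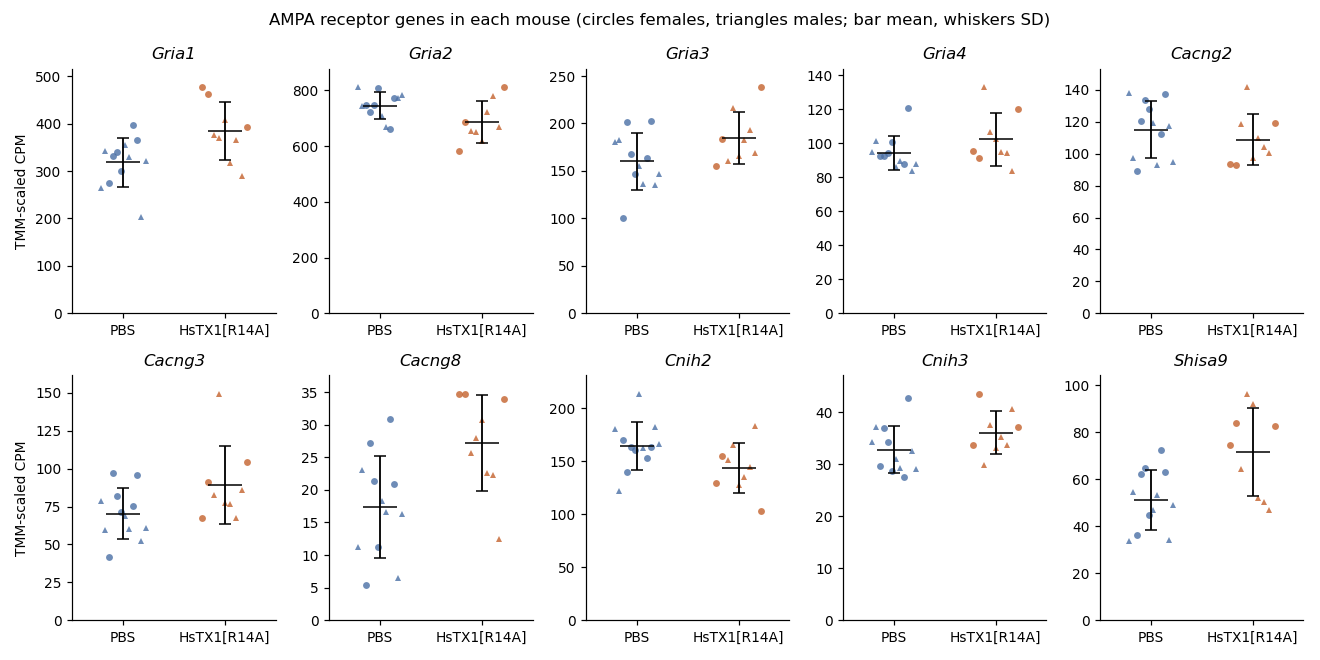
TMM-scaled CPM (vertical axes, from 0) of the 10 genes in each of 12 PBS and 9 HsTX1[R14A] mice, with circles for females, triangles for males, a bar at the mean and whiskers of 1 SD. The groups overlap in every panel, and the clearest upward displacement is in Cacng8 and Shisa9, where 5 HsTX1[R14A] mice lie above the highest PBS mouse for Shisa9.

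Gria1 (ENSMUSG00000020524, chr11:57011387-57330244, plus strand, GRCm38) encodes GluA1, the subunit whose insertion accompanies synaptic potentiation. Its level ran from 203 to 397 CPM with a median of 329.9 in PBS mice, and from 291 to 478 CPM with a median of 376 in HsTX1[R14A] mice. Of the 9 HsTX1[R14A] mice, 7 lay above the PBS median and 3 (mice 71, 72 and 88) above the highest PBS mouse. Its log2 fold change was 0.30 with a standard error of 0.10 (FDR 0.0274). The call was lost without HsTX1[R14A] mouse 71 (FDR 0.0569) or mouse 72 (FDR 0.0540), the 2 mice with the highest Gria1 levels. It was also lost without the 3 mice named above (log2 fold change 0.24, FDR 0.0932), with no sex term (0.27, FDR 0.0633), with the form of the library name as covariate (0.31, FDR 0.0510) and with 1 surrogate variable (0.17, FDR 0.0973).

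Gria2 (ENSMUSG00000033981, chr3:80681450-80802835, minus strand) ran from 662 to 813 CPM with a median of 748 in PBS mice, and from 581 to 814 CPM with a median of 669 in HsTX1[R14A] mice. In 4 HsTX1[R14A] mice it was below the lowest PBS mouse, while in mouse 98 it was just above the highest one. Its log2 fold change was -0.12 with a standard error of 0.07 (FDR 0.155). Gria3 (ENSMUSG00000001986, chrX:41400854-41678601, plus strand) ran from 100 to 203 CPM with a median of 160 in PBS mice and from 155 to 239 CPM with a median of 183 in HsTX1[R14A] mice. The lowest PBS value came from mouse 103, and 8 of the 9 HsTX1[R14A] mice lay above the PBS median, which holds for at least 8 mice in 19.4% of all genes. The log2 fold change of Gria3 was 0.22 with a standard error of 0.11 (FDR 0.121). Gria4 (ENSMUSG00000025892, chr9:4417896-4796234, minus strand), a subunit of fast receptors in interneurons and cerebellum, ran from 83.5 to 120 CPM in PBS mice and from 83.6 to 133 CPM in HsTX1[R14A] mice, with medians of 92.3 and 95.4 CPM. Its highest value was that of mouse 74, the library with the high cerebellum markers, and its log2 fold change was 0.13 with a standard error of 0.08 (FDR 0.198).

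Of the 3 TARP genes only Cacng8 passed the test, and differences between the 3 were not tested. Cacng8 (ENSMUSG00000053395, chr7:3390683-3415648, plus strand) was the most variable of the 10 genes, with a coefficient of variation of 45.1% over PBS mice. It ran from 5.46 to 30.9 CPM with a median of 17.4 in PBS mice, and from 12.4 to 34.8 CPM with a median of 27.9 in HsTX1[R14A] mice. The 3 HsTX1[R14A] females, at 33.9 to 34.8 CPM, lay above all other mice. Cacng8 had the largest log2 fold change of the 10, 0.70 with a standard error of 0.24 (FDR 0.0340). The call was lost with any of 8 mice left out, PBS mice 90 or 101 or HsTX1[R14A] mice 71, 72, 74, 81, 88 or 98, with FDR values from 0.0519 to 0.0610. It was also lost without mice 71, 74 and 103 together (0.61, FDR 0.0634), with no sex term (0.64, FDR 0.0655), with the library name form as covariate (0.64, FDR 0.0670) and with 1 surrogate variable (0.31, FDR 0.0983).

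Cacng3 (ENSMUSG00000066189, chr7:122670492-122769393, plus strand) ran from 41.4 to 97.4 CPM with a median of 70.0 in PBS mice, and from 67.5 to 150 CPM with a median of 82.7 in HsTX1[R14A] mice. HsTX1[R14A] mouse 81 stood far above the others at 150 CPM. For Cacng3 the log2 fold change was 0.38 with a standard error of 0.15 (FDR 0.0616), and the gene came under the threshold without PBS mouse 104 (FDR 0.0411), PBS mouse 85 (FDR 0.0467) or HsTX1[R14A] mouse 71 (FDR 0.0479), and with DESeq2 on all mice (FDR 0.0411). Without mouse 81 its log2 fold change was 0.25 (FDR 0.133). Cacng2 (ENSMUSG00000019146, chr15:77991748-78120028, minus strand) ran from 89.4 to 138 CPM in PBS mice and from 93.1 to 142 CPM in HsTX1[R14A] mice, with medians of 118 and 104 CPM. Its log2 fold change was -0.08 with a standard error of 0.10 (FDR 0.554). An annotated antisense gene, A730060N03Rik, overlaps an exon of Cacng2.

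Both cornichon genes were within the spread of the PBS mice for most animals. Cnih2 (ENSMUSG00000024873, chr19:5092868-5098521, minus strand) ran from 122 to 214 CPM with a median of 163 in PBS mice, and from 103 to 184 CPM with a median of 145 in HsTX1[R14A] mice. Of the 9 HsTX1[R14A] mice, 7 lay below the PBS median. For Cnih2 the log2 fold change was -0.23 with a standard error of 0.09 (FDR 0.0644), the lowest of the 10. It came under the threshold without PBS mouse 102, the lowest PBS mouse (FDR 0.0175), or HsTX1[R14A] mouse 93, the highest treated mouse (FDR 0.0273). An exon of Cnih2 overlaps the gene Yif1a on the opposite strand, and whether the counting used strand is not given in the sources used here, so its counts are uncertain. Cnih3 (ENSMUSG00000026514, chr1:181352628-181460641, plus strand) ran from 27.6 to 42.7 CPM in PBS mice and from 29.8 to 43.6 CPM in HsTX1[R14A] mice, with medians of 31.8 and 35.3 CPM. Although 8 of the 9 treated mice had more Cnih3 than the PBS median, the log2 fold change of Cnih3 was 0.15 with a standard error of 0.08 (FDR 0.153).

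Shisa9 (ENSMUSG00000022494, chr16:11984113-12270902, plus strand) had the smallest p-value of the 10 genes. It ran from 33.6 to 72.3 CPM with a median of 51.2 in PBS mice, and from 46.9 to 96.5 CPM with a median of 74.4 in HsTX1[R14A] mice. In 5 HsTX1[R14A] mice the level was above the highest PBS mouse, while the other 4 lay within the PBS range. The log2 fold change was 0.53 with a standard error of 0.15 (FDR 0.0192), and it remained called with each mouse left out (FDR from 0.00889 to 0.0392) and without mice 71, 74 and 103 (0.53, FDR 0.0433). With 1 surrogate variable it was 0.28 (FDR 0.0389).

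The weight of long transcripts differed from library to library, and several of these genes moved with it. In each mouse, the deviation of every gene from its own mean log2 CPM was fitted as a line on the log2 length of the longest transcript. The slope of that line, called the length slope here, was -0.0764 ± 0.161 (SD, n = 12) after PBS and 0.102 ± 0.119 (SD, n = 9) after HsTX1[R14A]. The difference, averaged over the sexes, was 0.201 (exact permutation of treatment within sex, two-sided, p = 0.00631). Within the 12 PBS mice alone, Cacng8 followed the slope almost completely, with r = 0.978 and rho = 0.923 (permutation tests, 100000 resamples, adjusted over the 10 genes, p = 0.0001 and 0.0005), where the unadjusted p of r, 1e-05, is the smallest these resamples can give. The correlations were r = 0.911 and rho = 0.895 for Shisa9 (adjusted p = 0.00015 and 0.0007) and r = 0.878 and rho = 0.874 for Gria1 (adjusted p = 0.000567 and 0.00117). Leaving out the 2 mice with the most extreme slopes gave r = 0.931 for Cacng8, 0.913 for Shisa9 and 0.906 for Gria1, and within the 10 PBS libraries that share a name form (described below) r was 0.984, 0.902 and 0.885. Thus the 3 genes called between treatments were also the 3 with the highest r against the slope among mice given PBS only. Gria3 (r = 0.731, rho = 0.678) and Cacng3 (r = 0.734, rho = 0.559) had adjusted p-values of 0.0131 for r, and of 0.0358 and 0.0906 for rho, and rested on the 2 mice of extreme slope, without which r was 0.349 and 0.333. Gria2 ran the other way, with r = -0.518 and rho = -0.636 (adjusted p = 0.141 and 0.0493), as did Cnih2, with r = -0.388 and rho = -0.685 (adjusted p = 0.304 and 0.0358). For Gria4, Cacng2 and Cnih3 the adjusted p-values of r were between 0.454 and 0.503. The length of a gene's own transcript did not order these correlations. The longest transcript has 1897 bases in Cacng8 (65.05% GC), 4326 in Shisa9 (47.23%) and 5546 in Gria1 (48.54%). It has 10371 bases in Gria2 (36.82%) and 1343 in Cnih2 (62.32%). Females and males were pooled for these correlations. What made the genes move with the slope, sex included, was not tested.

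**Figure D2:**
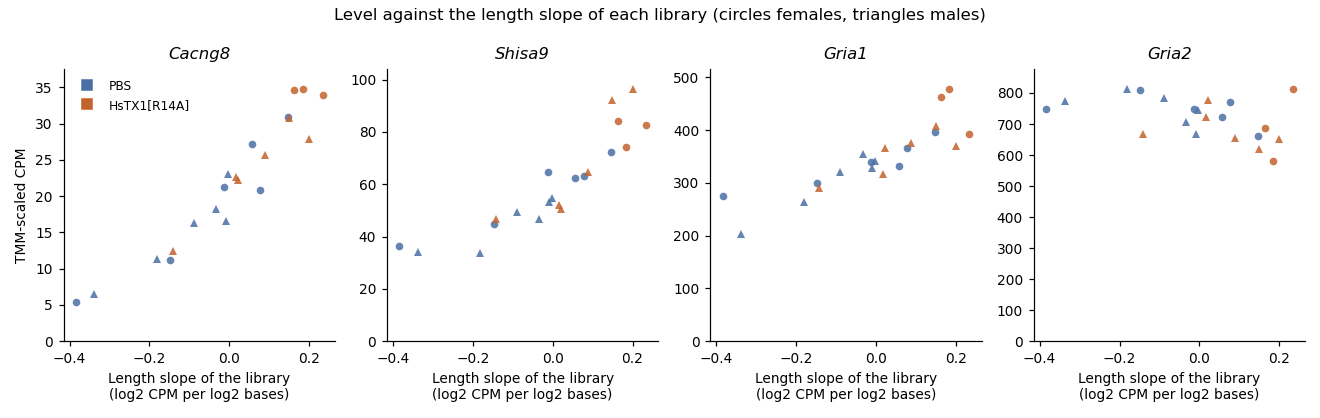
TMM-scaled CPM (vertical axes, from 0) of Cacng8, Shisa9, Gria1 and Gria2 against the length slope of each library (horizontal axes, log2 CPM per log2 bases), with 1 point per mouse. Cacng8, Shisa9 and Gria1 climb with the slope in mice of both treatments while Gria2 tends downward among PBS mice, and 8 of the 9 HsTX1[R14A] libraries have slopes above 0.

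With the length slope as a covariate in edgeR, 0 of the 10 genes and 0 of all genes were called, and 0 of the 10 and 1865 of all genes (11.4%) had an unadjusted p under 0.05. In that fit the log2 fold change was -0.05 for Cacng8 (FDR 0.848), 0.10 for Shisa9 (FDR 0.679) and 0.06 for Gria1 (FDR 0.761). When instead a smooth trend on transcript length and GC content was removed from each library, 3 of the 10 genes were again called, against 16.5% of all genes, but they were not the same 3. Cacng8 (0.58, FDR 0.0375) and Shisa9 (0.49, FDR 0.0206) remained, Gria1 did not (0.11, FDR 0.170), and Cacng2 was called lower at -0.38 (FDR 0.0396). Since the slope itself differed between treatments, its part and that of HsTX1[R14A] in these differences cannot be told apart. The library names come in 2 forms that the sources do not explain, one starting with SAMP8 (10 PBS and 5 HsTX1[R14A] mice) and one with SAMP (2 and 4). Within the SAMP8 form the log2 fold changes were 0.83 for Cacng8 (FDR 0.0933), 0.58 for Shisa9 (FDR 0.0665) and 0.37 for Gria1 (FDR 0.0773), and within the SAMP form they were 0.18, 0.33 and 0.12 (FDR from 0.855 to 0.876). In either form alone, 0 genes in all were called by edgeR, with 5797 (35.6%) and 532 (3.29%) at an unadjusted p under 0.05. Of the 10 genes, 5 and 0 were at that level.

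**Figure D3:**
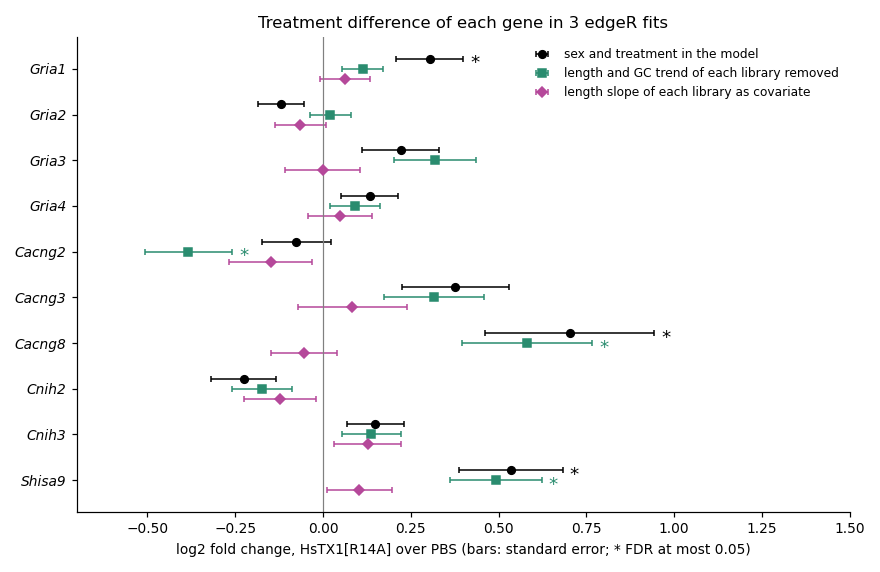
Log2 fold change between HsTX1[R14A] and PBS mice (horizontal axis, positive where higher after HsTX1[R14A]) with its standard error for each of the 10 genes in 3 edgeR fits, with an asterisk where the FDR was at most 0.05. With the length slope as covariate, all 10 values lie between -0.15 and 0.13 and 0 are called.

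The balance among the pore subunits does not depend on the scaling between libraries, since it is a share within each library. Each subunit was taken as a percent of the summed counts of Gria1 to Gria4 per length. Gria2 made up 40.8 ± 4.16% (SD, n = 12) after PBS and 34.9 ± 3.38% (SD, n = 9) after HsTX1[R14A]. In PBS mice the share ran from 34.9% (mouse 84) to 48.9% (mouse 90) with a median of 39.0%, and in HsTX1[R14A] mice from 29.5% (mouse 71) to 39.2% (mouse 93) with a median of 33.9%. The share was below the PBS median in 8 of the 9 treated mice, and the groups overlapped between 34.9% and 39.2%. Averaged over the sexes, the difference was -6.37 percentage points (exact permutation of treatment within sex, two-sided, p = 0.00165, adjusted over the 4 shares 0.00660).

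Gria1 made up 32.2 ± 4.03% in PBS mice and 36.5 ± 4.80% after HsTX1[R14A], and the difference averaged over the sexes was 5.07 percentage points (exact permutation test, adjusted p = 0.0338). Its share ran from 24.01% to 39.1% in PBS mice and from 31.8% to 45.5% in HsTX1[R14A] mice, where 6 of 9 were above the PBS median. Gria3 made up 17.2% and 18.7% (difference 1.31, adjusted p = 0.341) and Gria4 9.76% and 9.92% (difference -0.0151, adjusted p = 0.975). Since the 4 shares sum to 100%, a higher share of Gria1 goes with lower shares of the others by construction. By coding length Gria2 made up 57.2% in PBS and 51.0% in HsTX1[R14A] mice, and Gria1 23.7% and 27.9%.

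The Gria2 share followed the length slope among the 12 PBS mice more closely than any other share, with r = -0.957 and rho = -0.951 (permutation tests, 100000 resamples, adjusted over the 4 shares, p = 4e-05 and 8e-05), where the unadjusted p of r, 1e-05, is the smallest these resamples can give. Without the 2 mice of extreme slope r was -0.973, and within the SAMP8 form -0.953. For the Gria1 share r was 0.739 and rho 0.692 (permutation tests, adjusted p = 0.0131 and 0.0306). The sexes were pooled for these correlations too. With the slope and sex in a least-squares fit, a choice made with the data in view, the treatment difference was -1.77 percentage points with a standard error of 1.03 for Gria2 and 1.44 with a standard error of 1.94 for Gria1, given as values with no test. As the slope differed between treatments, its part and that of HsTX1[R14A] in the shares cannot be told apart.

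The Gria2 share stayed past the threshold with each mouse left out (adjusted p from 0.00301 to 0.0337, exact permutation test) and within the libraries of the SAMP8 form (-8.14 percentage points, adjusted p = 0.0204). The SAMP form held 2 PBS mice, too few for this test. Without mice 71, 74 and 103 it was -4.74 percentage points with an adjusted p of 0.0569. With the trend on length and GC content removed, chosen after the data had been seen, it was -2.51 percentage points (adjusted p = 0.0162), from 39.2% in PBS to 36.8% in HsTX1[R14A] mice. In that setting the mean share was 34.0% and 33.9% for Gria1 and 16.9% and 19.5% for Gria3. The Gria3 difference did not pass the threshold there. The Gria1 share was less steady. Its adjusted p was from 0.0538 to 0.126 with any of 11 mice left out (PBS mice 73, 85, 90, 101, 103, 104 or 105, HsTX1[R14A] mice 71, 72, 74 or 88), 0.168 without mice 71, 74 and 103 (3.31 points), and 0.912 with the trend removed (0.174 points).

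**Figure D4:**
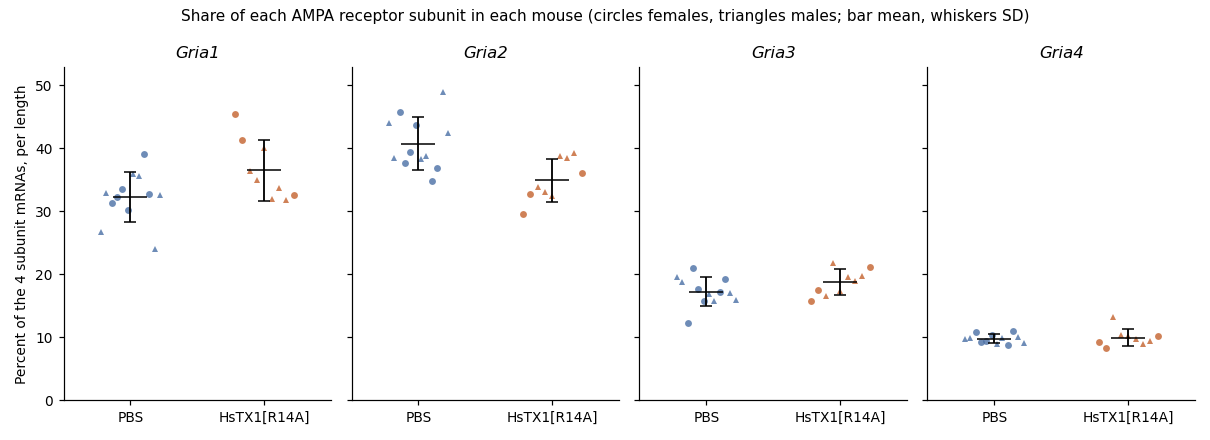
Percent of the summed, length-divided counts of Gria1 to Gria4 (vertical axis, from 0) for each subunit in each mouse, with circles for females, triangles for males, a bar at the mean and whiskers of 1 SD. Gria2 is the largest share in PBS mice at a mean of 40.8%, while in HsTX1[R14A] mice the means per longest transcript are 36.5% for Gria1 and 34.9% for Gria2.

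Sex and its interaction with treatment were tested because Gria3 lies on the X chromosome and both sexes were dosed. In the same fit, 0 of the 10 genes differed between males and females, against 0.0552% of all genes (9 genes by edgeR, 0.0307% higher and 0.0245% lower in males), and limma/voom called 10 genes, 0 of them among the 10 described here. Gria3 had a log2 difference of males over females of -0.08 (FDR 0.694). At an unadjusted p under 0.05 there were 2 of the 10, Gria1 (-0.22, p = 0.0327) and Shisa9 (-0.31, p = 0.0491), both with FDR values of 0.446, where 10.8% of all genes had such a p. For the interaction of treatment and sex, 0 of 16303 genes passed by edgeR or limma/voom, 270 (1.66%) and 250 had an unadjusted p under 0.05, and 0 of the 270 were among the 10. Fitted separately, the log2 fold changes of females and males were 0.81 and 0.63 for Cacng8, 0.49 and 0.57 for Shisa9, and 0.41 and 0.24 for Gria1. In neither sex alone was any gene called by edgeR (3312 genes, 20.4%, in females and 4440, 27.6%, in males had an unadjusted p under 0.05).

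Within the PBS group some of the genes varied together from mouse to mouse. Females and males were pooled for these correlations, and the part of sex in them was not tested. Of the 45 pairs, 35 had a positive Pearson r and 6 passed an adjusted p of 0.05, all positive (permutation tests, 100000 resamples). The median r was 0.289, against 0.0035 over all pairs of the 13302 genes whose mean log2 CPM was 1 or more. Cacng8 and Shisa9 had the highest correlation (r = 0.896, adjusted p = 0.00135, rho = 0.874, adjusted p = 0.0168, r = 0.881 without the 2 most extreme mice). Gria1 varied with both, at r = 0.853 with Cacng8 (adjusted p = 0.00484, rho = 0.839, adjusted p = 0.0168) and r = 0.861 with Shisa9 (adjusted p = 0.00135, rho = 0.846, adjusted p = 0.0168). Cacng3 varied with Gria3 (r = 0.890, adjusted p = 0.0036, rho = 0.783, adjusted p = 0.0388) and with Cacng2 (r = 0.750, adjusted p = 0.0315, rho = 0.776, adjusted p = 0.0388). Gria3 varied with Cacng8 by r only (r = 0.756, adjusted p = 0.0315, rho = 0.713, adjusted p = 0.0885). Without the 2 most extreme mice the last 5 pairs had r from 0.589 to 0.878. The lowest r was between Gria2 and Shisa9 at -0.55 (adjusted p = 0.224, rho = -0.622, adjusted p = 0.121), followed by Gria1 and Gria2 at -0.53 (adjusted p = 0.243, rho = -0.671, adjusted p = 0.111). Cnih2 had a negative r with 7 of the 9 other genes.

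With the trend on length and GC content removed from each library, 4 pairs passed. Cacng8 and Shisa9 remained at r = 0.873 (adjusted p = 0.0108), as did Gria3 with Cacng3 (0.813) and with Cacng8 (0.820), both with an adjusted p of 0.0164 (permutation tests). Gria2 and Gria3 came to r = 0.766 (adjusted p = 0.0375) from 0.0508. By rho (0.895, 0.678, 0.846 and 0.713 in this order) the adjusted p-values were 0.0122, 0.138, 0.0232 and 0.138. Gria1 no longer varied past the threshold with Cacng8 (r = 0.385, adjusted p = 0.507) or with Shisa9 (r = 0.421, adjusted p = 0.482). Without the 2 mice most extreme in Gria1 these r were -0.409 and -0.403. Cacng2 no longer varied with Cacng3 past the threshold either (r = 0.153, adjusted p = 0.811). The r of Gria2 and Shisa9 turned to 0.327.

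**Figure D5:**
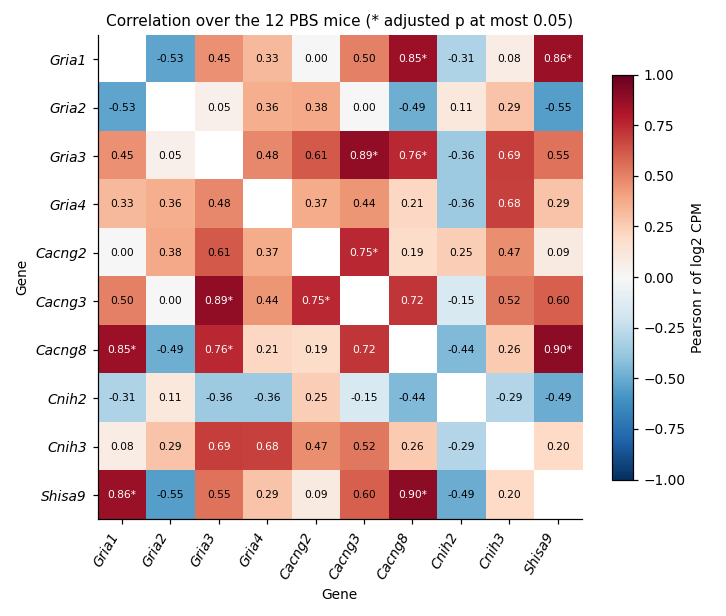
Pearson r of log2 CPM between each pair of the 10 genes over the 12 PBS mice, from blue for negative to red for positive, with an asterisk where the adjusted p was at most 0.05. Cacng8, Shisa9 and Gria1 have r from 0.853 to 0.896 with each other before removal of the length and GC trend, and Gria2 and Cnih2 have negative r with these 3 genes.

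The genes outside the 10 whose pattern was most like that of a pore subunit were found by Pearson r of log2 CPM over the 21 mice, after subtraction of the mean of each treatment and sex, among the 13302 genes. For Gria1 they were Slit1 (r = 0.945), Cand2 (0.927) and Cgnl1 (0.923). Among the genes closest to Gria2 were Fnip1 (0.866) and G2e3 (0.840), and those closest to Gria3 were Pdzrn3 (0.951), Dclk1 (0.950) and Kcnh7 (0.946). Gria4 had no gene as close, the top values being those of Ubash3b (0.780), Pde5a (0.735) and 2810403A07Rik (0.729). The length and GC trend of each library was not removed for these r, and its part in them was not tested.

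Other genes of the receptor pathway showed calls in the upward direction only, in a series where 31.6% of all genes were called and 15.5% were called higher. All lists used here and below were chosen with earlier results of these data known. Among 9 other auxiliary subunits, 3 were higher and 0 lower, with a median log2 fold change of 0.37. Shisa7, which encodes CKAMP59, stood at 82.0 CPM in PBS and 137 CPM in HsTX1[R14A] mice (log2 fold change 0.82, FDR 0.0286), and Prrt1, which encodes SynDIG4, at 71.2 and 117 CPM (0.78, FDR 0.0422). The other called gene was Shisa6, which encodes CKAMP52 (0.92, FDR 0.0461), named here after its value was seen. Of 6 genes that act in receptor assembly in the endoplasmic reticulum, 2 were higher and 0 lower, with a median of 0.11. These were Cpt1c (0.28, FDR 0.0171) and Porcn (0.33, FDR 0.0333). Of 12 measured trafficking and anchoring genes, 6 were higher and 0 lower, with a median of 0.29. Nsf, the ATPase that binds GluA2, stood at 493 and 680 CPM (0.48, FDR 0.0163) and Nptxr, the receptor of neuronal pentraxins that cluster AMPA receptors, at 316 and 606 CPM (0.99, FDR 0.0194). Of the 2 editing enzymes, Adar was higher (0.61, FDR 0.0163), and Adarb1, which edits the Gria2 transcript at the site that sets calcium permeability, had a log2 fold change of 0.30 (FDR 0.157).

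The other ionotropic glutamate receptors give a comparison for the 10 genes. Of all genes tested, 15.5% were called higher and 16.1% lower. Of 6 measured NMDA receptor subunits, 3 were higher and 0 lower with a median log2 fold change of 0.67. They were Grin2b (0.89, FDR 0.0169), Grin3a (0.54, FDR 0.0217) and, named after its value was seen, the obligatory subunit gene Grin1 (0.81, FDR 0.0301). Of 5 kainate receptor subunits 1, Grik3, was higher (0.87, FDR 0.0289), with a median of 0.38. The difference between these lists and the 10 genes was not tested. Across all 6 lists, no gene was called lower with RLE scaling (an alternative to TMM), with the length and GC trend removed or without mice 71, 74 and 103, and with the length slope as covariate 0 genes were called in either direction. With that covariate the medians were -0.07 for the other auxiliary subunits, -0.09 for the NMDA and -0.02 for the kainate receptor subunits. With the trend removed, 0 of the 9 other auxiliary subunits and 3 of the 12 trafficking genes were called higher, where 16.5% of all genes were called in either direction. Higher calls fell in other fits too. For the other auxiliary, trafficking, NMDA and kainate genes they were 0, 2, 2 and 0 with no sex term (2984 genes called in all, higher or lower). With the library name form as covariate (1999 in all) they were 0, 3, 2 and 0. Without mice 71, 74 and 103 (1826 in all) they were 2, 4, 1 and 0.

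Over 11 lists of cell type and region markers, 15 of 63 markers were called (23.8%, against 31.6% of all genes), 7 higher and 8 lower. Of 7 neuron markers 3 were higher and 0 lower, among them Eno2 (0.37, FDR 0.0175) and Syp (0.30, FDR 0.0274) but not Stmn2 (-0.19, FDR 0.143), with summed levels of 4965 to 7421 CPM in PBS and 5727 to 8533 CPM in HsTX1[R14A] mice, while 0 of 6 excitatory forebrain markers were called (1450 to 4958 and 3261 to 6280 CPM). Of 6 oligodendrocyte markers 3 were lower, among them the myelin genes Mobp (-0.67, FDR 0.0145) and Mog (-0.57, FDR 0.0151), and the summed level was below the PBS median in all 9 HsTX1[R14A] mice (4277 to 6608 CPM in PBS and 3243 to 4783 CPM in HsTX1[R14A] mice). Of 6 microglia markers 2 were lower, P2ry12 (-0.65, FDR 0.0151) and Aif1 (-0.55, FDR 0.0272), while Csf1r had a value of 0.28 (FDR 0.134), with summed levels of 334 to 484 and 280.3 to 419.7 CPM. Of 6 astrocyte markers 2 were lower, Gfap (-0.59, FDR 0.0312) and Aqp4 (-0.30, FDR 0.0477), while Slc1a2 had a value of 0.32 (FDR 0.133), with summed levels of 2059 to 4074 and 2397 to 4183 CPM. Of 6 GABAergic neuron markers Slc32a1 was higher (0.56, FDR 0.0422) and Vip lower (-0.49, FDR 0.0412). Of 4 oligodendrocyte precursor markers Gpr17 (0.72, FDR 0.0185) and Cspg4 (0.66, FDR 0.0307) were higher, as was Flt1 of 5 endothelium markers (0.64, FDR 0.0191). With edgeR 0 of 6 cerebellum, 6 striatum and 5 choroid plexus markers were called. The part of these markers in the differences of the 10 genes was not tested.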

How the data were processed

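RNA from the brains of 21 SAMP8 mice (12 PBS, 9 HsTX1[R14A], 1 library per mouse) was analysed. Per the methods of the study, the authors aligned reads to GRCm38 with STAR and quantified them with Salmon, and they deposited estimated counts per gene, not normalized. The study names a directional MGI kit and the labels a SMARTER kit, and the sample titles spell the peptide HxTX1[R14A]. Of the estimated counts, 90.496% were whole to within 0.01, and every value was rounded. The authors' fold change and p-value columns were not used, nor were 53 other per-sample columns (37 of CPM, 16 of counts). The 10 genes and all lists were chosen with earlier results of these data known.

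After filterByExpr and TMM scaling, the quasi-likelihood test of edgeR 4.0.16 (R 4.3.3) was applied with terms for sex and treatment, at an FDR of at most 0.05. The standard error is the log2 fold change divided by the square root of F. All 10 genes are named, and from every other list the 2 called genes with the smallest p in each direction, to which Adarb1, Shisa6, Grin1, Stmn2, Csf1r and Slc1a2 were added after their values were seen. Of the 3 genes most like each pore subunit, 1 is not reported here. Log2 CPM carried a prior count of 2. Lengths and GC content came from the longest transcript in GENCODE (GRCm38), found for 16224 tested genes, and trends were fitted by loess with span 0.5. Groups follow the sample titles, and the mouse is the unit of replication in every test of these data. Over all 210 pairs of libraries the mean chi-square per gene was at least 7.58, far above sampling noise. On data simulated from these libraries, edgeR recovered 190 of 200 genes changed 2-fold with 8 false calls among 16294 genes. Recovery of smaller changes, such as those of Gria1, Cacng8 and Shisa9, was not tested. False calls where the length slope differs between treatments were not tested either. Alternatives were limma 3.58.1 with voom, DESeq2 1.42.0, scaling by RLE (relative log expression), 2 other filters, no sex term, library name form, length slope, the length and GC trend, 1 surrogate variable (sva 3.50.0) and each mouse left out.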

Additional observations from a re-analysis of the deposited data

Results flagged for a closer look

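Among the 14 sets of 9 HsTX1[R14A] values checked for a mouse far from the rest (10 genes in CPM and 4 subunit shares), 2 held one, by a rule that chance meets in about 1 of 20 sets. Cacng3 was 149.605 CPM in HsTX1[R14A] mouse 81, and the gap to the next mouse was 0.547 of the whole range, above Dixon's limit for 9 values. Mouse 81 also had the highest summed excitatory forebrain markers, 6280 CPM, and the highest Shisa9. The Gria4 share was 13.1641% in HsTX1[R14A] mouse 74, with a gap of 0.593 of the range. Mouse 74 was the library with 518 CPM of summed cerebellum markers, against at most 106 CPM in PBS mice. The part of these markers in either value was not tested.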

How the results depend on the processing

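No paired analysis was possible because the mouse numbers are unique and no number is shared between groups, and the cages, within which the study randomized treatment, are not given in the labels. The count of called genes (5144, with 3 of the 10 among them) was 2984 with 1 of the 10 without the sex term, 1999 with 1 with the library name form as covariate, 2110 with 1 with 1 surrogate variable, 1826 with 1 without mice 71, 74 and 103, 2674 with 3 after removal of the length and GC trend, and 0 with 0 for the length slope as covariate and for either library name form alone. The cause of these differences was not tested. The last 2 fits also held fewer mice, and the part of that and of the name form cannot be told apart. With DESeq2, 6143 genes and 4 of the 10 were called, and with limma/voom, RLE scaling and both other filters 5139 to 5272 genes and 3 of the 10. With each mouse left out, 2289 (without PBS mouse 90) to 6614 genes and 1 (without HsTX1[R14A] mouse 72) to 4 of the 10 were called, and also 3005 (without mouse 98), 3332 (71), 3121 (88) and 3263 (81). Signs turned for Cacng8 (-0.055) and Gria3 (-0.00092) with the length slope, for Gria2 (0.021) with the trend removed, and for Gria2 (0.037), Cacng2 (0.17) and Cnih3 (-0.035) within the 6 libraries of the SAMP form.

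The Gria4 share difference turned to 0.303 without division by length, 0.310 by coding length, 0.0380 within the SAMP8 form and 0.293 with the length slope as covariate, and ran from -0.306 to 0.218 with each mouse left out. The Gria1 share difference was 0.174 with the trend removed, 3.31 without mice 71, 74 and 103, and 3.66 to 6.87 with each mouse left out, and that of Gria2 was -4.74 without these 3 mice and -1.77 (standard error 1.03) with the length slope as covariate, where the share itself followed the slope among PBS mice. Among neighboring pairs, the order of levels turned by coding length for Gria3 over Cacng3 (-0.29), Cacng3 over Cacng2 (-0.70) and Gria4 over Cnih3 (-0.74). In HsTX1[R14A] mice it turned for Gria2 over Gria1 (-0.059) and Cnih3 over Shisa9 (-0.25), where 4 of 9 pairs passed in place of 8. The r of Gria2 and Shisa9 turned to 0.327 with the trend removed. The counts for sex and for its interaction with treatment kept 0 of the 10 genes under limma/voom, both covariates and each mouse left out. At counts of 77 or more in every library, the spread between mice limits these results more than depth does.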
